A study of Mus with 4 samples.

Results

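Kinetochore, centromere and spindle checkpoint genes were examined in PPS-ICBR cells, a mouse prostate cancer line of C57Bl6 origin, after vorinostat. The members were 47 genes named by function, and every probe set (a set of array probes for 1 transcript) that the platform annotation gives a single member symbol was taken. This found 98 probe sets for 46 of the 47 genes, out of 18193 genes with a single symbol. The 5 probe sets that name Hjurp, the chaperone that deposits centromeric histone, also name other transcripts and were not used. In the study, 2 arrays came from cells kept overnight with 5 µM vorinostat dissolved in DMSO and 2 from cells kept with DMSO alone (5 µL in 10 mL of medium), both seeded at 60% confluency in serum-supplemented DMEM with antibiotics. Vorinostat inhibits histone deacetylases, the enzymes that remove acetyl groups from histones and other proteins. The series holds 1 line and 1 dose. Separate cultures behind the arrays are not stated in the labels. The spread that enters each p-value is thus only that among these 4 arrays, and it may be technical.

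The centromere is the chromosomal site marked by nucleosomes that hold the histone H3 variant CENP-A. On it sits an inner set of proteins, the constitutive centromere-associated network, which recruits the outer microtubule-binding KNL1, MIS12 and NDC80 complexes before mitosis. The spindle checkpoint delays anaphase until kinetochores are attached, and the chromosomal passenger complex corrects faulty attachments. Many of these genes are transcribed mainly in G2 and mitosis of dividing cells, while others are needed in cells at every stage.

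Values are the deposited log2 values. A member with several probe sets is represented by its brightest one over the 4 arrays unless another is named. Changes are vorinostat minus DMSO by limma with their standard error (SE, n = 2 arrays per group), and a gene fell or rose if its p adjusted over all 45037 probe sets was under 0.05. A probe set is near background in a group if both arrays lie within 1 log2 unit of the highest tryptophan-gene control, which puts the edge at 3.54 to 3.78. The 2 vorinostat arrays differed by over 2-fold at 9 probe sets and the 2 DMSO arrays at 16. The hybridisation spikes averaged 9.99 and 10.02 on the vorinostat arrays and 10.04 and 9.97 on the DMSO arrays, and the 3′ minus 5′ difference of Gapdh, a sign of RNA integrity, was -0.25 and -0.23 against -0.22 and -0.21 (log2). Of the epithelial markers, Krt8, Krt18, Epcam, Cdh1 and Hoxb13 were well above background, and the prostate secretory gene Pbsn was near background on all 4 arrays. Tmprss2 was dim, at 4.87 and 4.96 with vorinostat and 5.10 and 5.13 with DMSO. Krt8 fell (-1.05, SE 0.12) and Hoxb13 rose (0.54, SE 0.08). Of the markers of other cell types, 3 of 4 leukocyte, 1 of 3 endothelial, 0 of 5 fibroblast and 0 of 3 basal epithelial genes were near background in both groups. The array medians, 4.26 and 4.28 with vorinostat and 4.19 and 4.22 with DMSO, lie above that edge, so a value beyond it need not mean expression. Basal markers averaged 4.73 and 4.87 with vorinostat and 4.73 and 4.62 with DMSO, and endothelial ones 3.68 and 3.92 against 3.69 and 3.70. The fibroblast markers averaged 7.97 and 8.29 with vorinostat and 8.32 and 8.30 with DMSO, and 2 rose and 2 fell. Their part in the results was not tested.

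The genes of chromosome attachment fell together after vorinostat. Of the 46 members, 42 fell, 1 rose and 3 did not pass, where 18.9% of all genes fell and 20.9% rose. The median log2 change of the members was -1.68, against 0.03 for all genes. At least 2-fold falls were found for 35 members and 6.17% of all genes, and at least 4-fold falls for 17 members and 1.00% of all genes. Both vorinostat arrays lay below both DMSO arrays for 43 members, as for 31.6% of all genes, and above them for 1, as for 37.3%. The shares of all genes include 4650 of 18193 that were near background in both groups, as 0 of the 46 members were. The 2 sets are thus unlike in brightness. Fewer dividing cells and less of these RNAs in each cell cannot be told apart in bulk RNA.

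At the brightest probe sets, the spread between arrays of a group was small beside the median change of the members. It reached 0.51 between the vorinostat arrays and 0.27 between the DMSO arrays for any member, with medians of 0.08 and 0.06 on the log2 scale. It was not small beside the smaller changes. The vorinostat arrays had 5.61 and 5.28 for Mad1l1, which changed by -0.44, and 7.21 and 6.94 for Mis12, which changed by -0.53. Some dimmer probe sets had a wider spread, such as 1 of Cenpo with 6.42 and 5.00 under DMSO. Adjusted p of the 43 members that passed in limma lay between 0.00016 and 0.0301. An exact permutation test of 2 arrays against 2 cannot go below p = 0.333 (two-sided), so the calls rest on variances moderated over all probe sets. With each array shifted by 7 reference genes, whose mean change was -0.37 and median -0.23, 37 members fell and 3 rose, and 6 fell at least 4-fold. The mean is set mostly by Gusb (-1.42) and Polr2a (-0.75), while the remaining 5 lay between -0.26 and 0.08. That shift moved the median of all genes to 0.40, and 2048 of the 18193 genes then fell and 11340 rose.

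**Figure D1:**
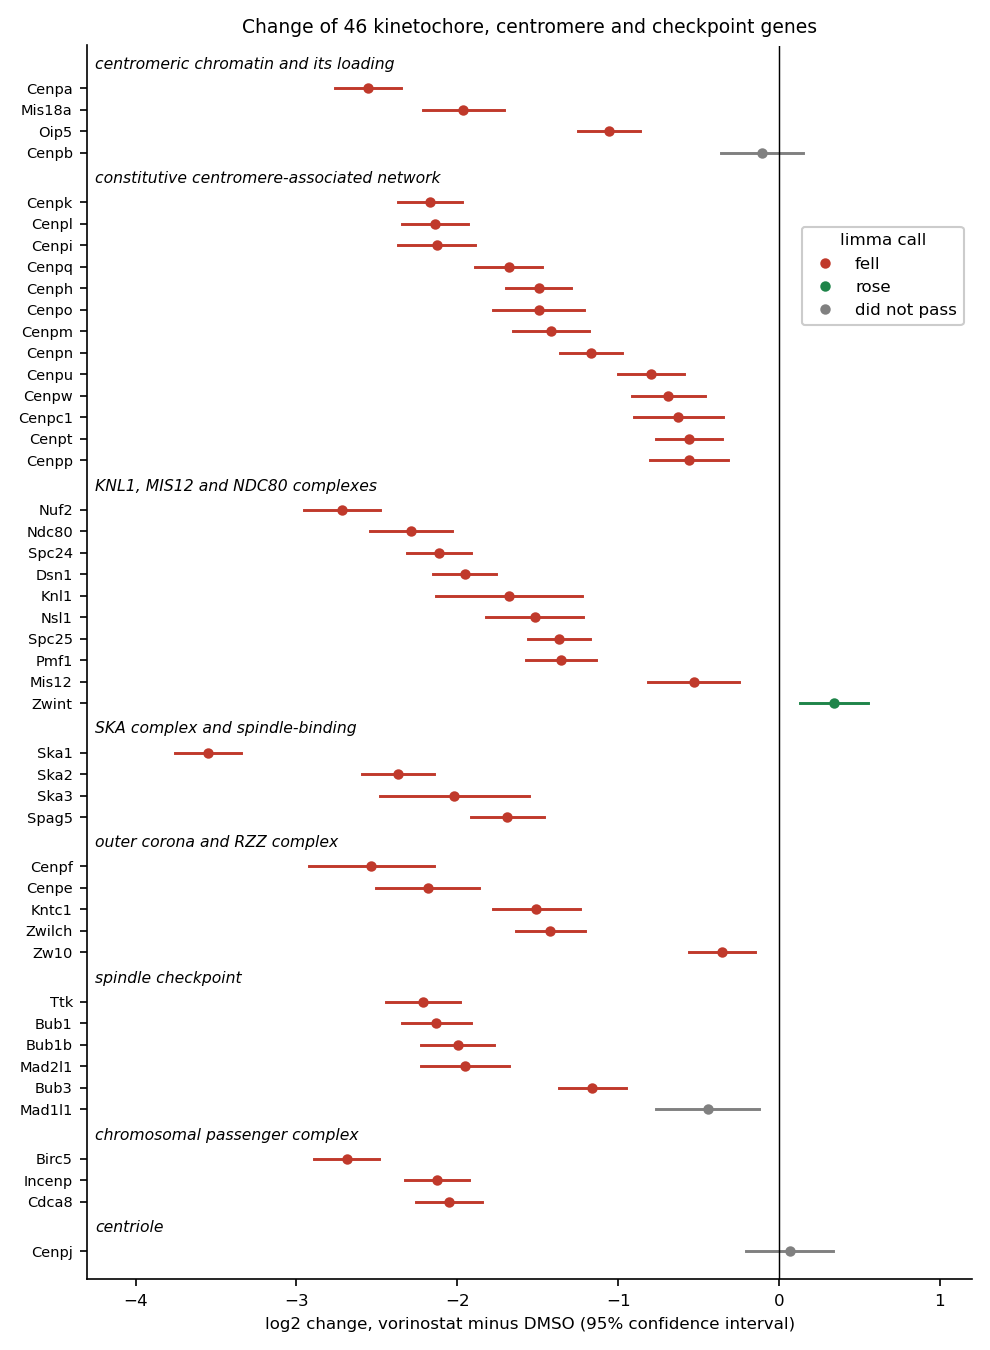
Log2 change (vorinostat minus DMSO, x axis) of the 46 members at their brightest probe set, grouped by role, with points for the fitted change and lines for the 95% confidence interval. All but Zwint and Cenpj lie below 0, and Ska1 lies farthest from it at -3.55.

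Centromeric chromatin and its loading were represented by 4 genes, of which 3 fell. Cenpa, the centromeric histone, had 7.89 and 7.95 with vorinostat and 10.50 and 10.44 with DMSO, a 5.88-fold fall (log2 change -2.56, SE 0.08, adjusted p = 0.00016). Mis18a (-1.96, SE 0.10) and Oip5 (-1.06, SE 0.08), subunits of the Mis18 complex that readies centromeres for new CENP-A, fell too, and the 95% confidence intervals of all 3 changes are separate at the brightest probe sets. A second Cenpa probe set fell by 1.55 (SE 0.17), with an interval of -1.97 to -1.13 that overlaps with those of both Mis18a and Oip5. The single-symbol probe sets of H3f3a (-0.22, SE 0.14) and H3f3b (-0.07, SE 0.34), genes of a replacement histone H3 that is not specific to centromeres, did not pass. Both probe sets were dim, with vorinostat and DMSO means of 4.51 and 4.72 for H3f3a and 5.13 and 5.21 for H3f3b. The DMSO arrays of H3f3b lay apart at 5.71 and 4.71. Whether these probe sets follow the level of either gene was not tested, so no contrast with Cenpa is drawn. Cenpb, which binds a DNA motif in centromeric satellite repeats, had 8.74 and 8.84 with vorinostat and 8.99 and 8.80 with DMSO. Those arrays overlap, and its change of -0.10 (SE 0.10, adjusted p = 0.5, 95% interval -0.36 to 0.15) excludes a fall of the size seen for Cenpa. A second Cenpb probe set did not pass either (-0.34, SE 0.16). Under the reference-gene shift Cenpb was at 0.26 and passed (adjusted p = 0.0484), but this is below the median of all genes under that shift, 0.40.

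All 13 genes of the constitutive centromere-associated network fell, with a median of -1.42, but by amounts that differed within and between subcomplexes. In the CENP-H, I, K and M subcomplex, Cenpk had 6.51 and 6.57 with vorinostat and 8.69 and 8.72 with DMSO, a 4.50-fold fall. Cenpi changed by -2.13 (SE 0.09), Cenph by -1.49 (SE 0.08) and Cenpm by -1.42 (SE 0.09). The partners CENP-L and CENP-N, of which CENP-N binds the CENP-A nucleosome, were at -2.14 (SE 0.08) for Cenpl and -1.17 (SE 0.08) for Cenpn, though a second Cenpn probe set changed by -1.73 (SE 0.09).

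The CENP-O, P, Q and U group helps hold microtubules and dock the kinase PLK1. Within it, Cenpq (-1.68, SE 0.08) and Cenpo (-1.49, SE 0.11) fell by more than Cenpu (-0.80, SE 0.08) and Cenpp at their brightest probe sets. The intervals of the first pair do not reach those of the second there. Other Cenpo probe sets not near background in both groups ranged from -2.29 (SE 0.46) to 0.11 (SE 0.18), so its place in this order depends on the probe set. Cenpp had 7.04 and 6.85 with vorinostat and 7.51 and 7.49 with DMSO, the smallest change in the network (-0.56, SE 0.10, adjusted p = 0.00899). The DNA-binding histone-fold pair Cenpt (-0.56, SE 0.08) and Cenpw (-0.69, SE 0.09), and the scaffold Cenpc1 (-0.62, SE 0.11), fell by less than 2-fold. These 3, with Cenpp and Cenpu, are thus the members of the network with the smaller falls. Calls were lost for Cenpp without Vorinostat 2, DMSO 1 or DMSO 2 (adjusted p = 0.0585, 0.0838 and 0.0745), for Cenpc1 without either vorinostat array (0.0845 and 0.0838), for Cenpt without Vorinostat 1 (0.0546) and for Cenpw without DMSO 1 (0.0506). Under the reference-gene shift Cenpp, Cenpt and Cenpc1 did not pass (adjusted p = 0.135, 0.0855 and 0.0611).

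Of the 10 outer kinetochore genes, 9 fell and Zwint rose at its brightest probe set. All 4 subunits of the NDC80 complex, the rod that grips the microtubule, fell. Nuf2 had 6.40 and 6.51 with vorinostat and 9.24 and 9.10 with DMSO, a 6.57-fold fall (log2 change -2.72, SE 0.09, adjusted p = 0.000161). Its partner Ndc80 changed by -2.29 (SE 0.10) and Spc24 by -2.11 (SE 0.08), while Spc25, the partner of Spc24 at the other end of the rod, changed by -1.37 (SE 0.08). The confidence interval of Spc25 does not reach those of the other 3 subunits. Spc25 had 7.77 and 7.76 with vorinostat and 9.15 and 9.12 with DMSO at this probe set, but a dim second one, at 3.68 and 4.45 against 4.36 and 4.21, overlapped and did not pass (-0.22, SE 0.25).

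The MIS12 complex links inner and outer kinetochore. Its subunits Dsn1 (-1.95, SE 0.08), Nsl1 (-1.52, SE 0.12) and Pmf1 (-1.36, SE 0.09) fell by more than 2-fold. Mis12 itself had 7.21 and 6.94 with vorinostat and 7.64 and 7.58 with DMSO, a 1.45-fold fall (-0.53, SE 0.11, adjusted p = 0.0188) whose interval is separate from the others at the brightest probe sets. A second Pmf1 probe set changed by -1.02 (SE 0.12), with an interval that overlaps with that of Mis12. The call of Mis12 was lost without Vorinostat 2 (adjusted p = 0.0829), DMSO 1 (0.138) or DMSO 2 (0.11), and under the reference-gene shift (0.234). Nsl1 had 4.76 and 4.88 with vorinostat and 6.47 and 6.21 with DMSO, while a second probe set of nearly the same brightness had 5.48 and 5.47 against 5.18 and 5.31 and did not pass (0.24, SE 0.09, adjusted p = 0.0995). Its 2 probe sets therefore point in opposite directions. Knl1, the scaffold that recruits BUB kinases, changed by -1.68 (SE 0.18) and by -2.49 (SE 0.28) at its other probe set.

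**Figure D2:**
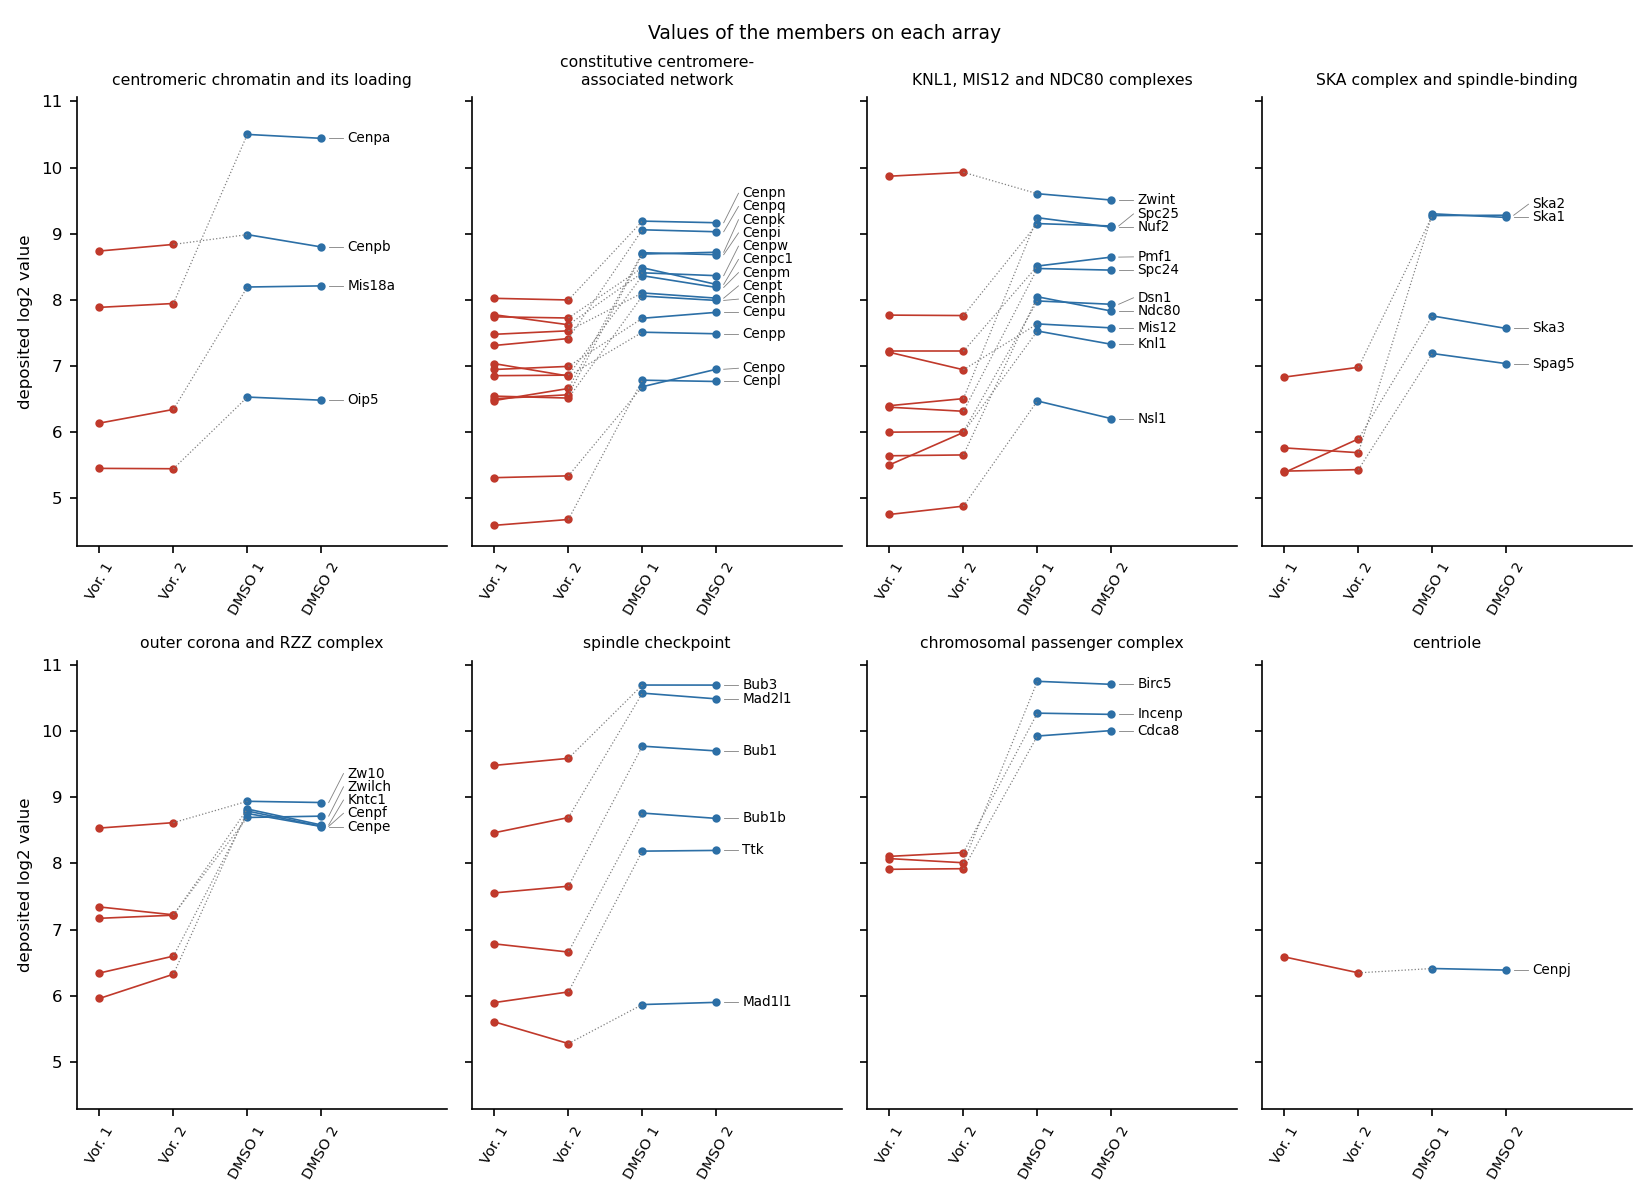
Deposited log2 value (y axis) of each member on the 2 vorinostat arrays (red) and the 2 DMSO arrays (blue), in a panel per role, with a line per gene. Arrays of a group lie close together, and the vorinostat values lie below the DMSO values except for Zwint, Cenpb and Cenpj; levels of different genes are not comparable, since probes differ in brightness.

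Zwint, which ties the RZZ complex to KNL1, gave discordant values among its 7 probe sets. The brightest, 1423724_at, had 9.87 and 9.93 with vorinostat and 9.60 and 9.51 with DMSO, and rose (0.34, SE 0.08, adjusted p = 0.0301). Another, 1427539_a_at, had 7.47 and 7.41 with vorinostat and 8.90 and 8.85 with DMSO, and fell (-1.43, SE 0.08, adjusted p = 0.000299). In both, the arrays of the 2 groups are well apart, in opposite directions. Of the other 5 probe sets, 1429787_x_at (-0.98), 1427540_at (-1.01), 1444717_at (-0.60) and 1429786_a_at (-0.32) also fell, and 1455382_at was near background in both groups. The mean of all 7 probe sets fell by 0.59 (adjusted p = 0.0017). The rise at 1423724_at was lost when any single array was left out (adjusted p from 0.0809 to 0.145), with the arrays centred on their medians (0.0659) and with the replicate number as a block (0.0739). No direction can therefore be given for Zwint as a gene.

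**Figure D3:**
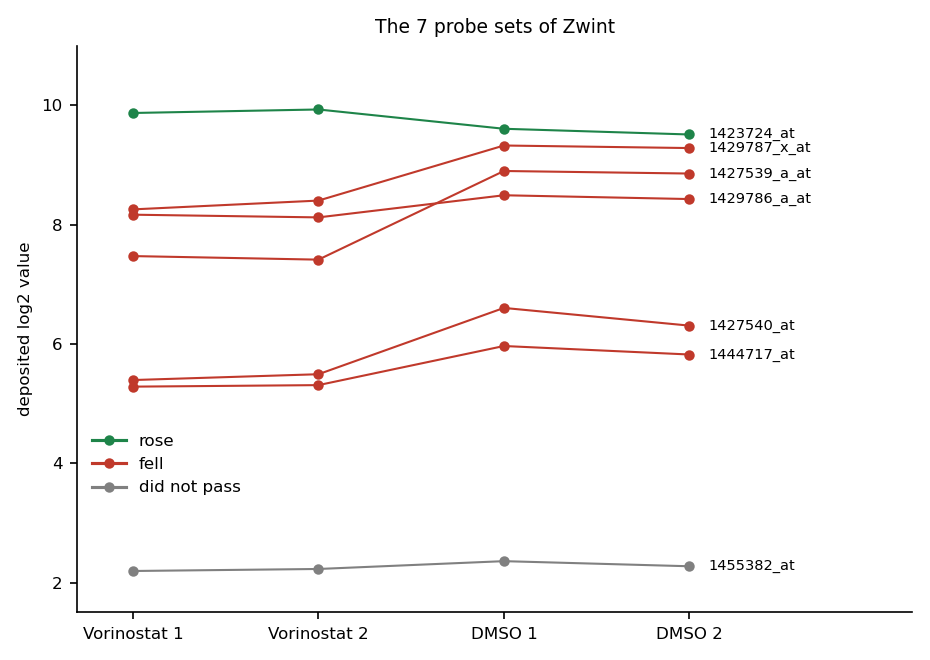
Deposited log2 value (y axis) of each of the 7 Zwint probe sets on the 2 vorinostat and the 2 DMSO arrays (x axis), with a line per probe set coloured by its call. The brightest probe set slopes the opposite way to the 5 that fell.

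The SKA complex tracks microtubule ends at the outer kinetochore, and its 3 genes fell by at least 4-fold. Ska1 had the largest fall of all 46 members, with 5.76 and 5.69 under vorinostat and 9.30 and 9.25 under DMSO, an 11.7-fold difference (log2 change -3.55, SE 0.08, adjusted p = 0.00016). Ska2 followed at -2.37 (SE 0.09) and Ska3 at -2.02 (SE 0.18), and the interval of Ska1 is separate from both at the brightest probe sets. A second Ska1 probe set fell at least 3.33-fold to near background. Its fitted change of -2.46 (SE 0.16) has an interval that overlaps with those of Ska2 and Ska3. Another Ska1 probe set, at 3.19 and 3.08 against 3.51 and 4.10, did not pass (adjusted p = 0.0555). Spag5, which encodes the spindle-binding astrin, had 5.41 and 5.43 with vorinostat and 7.19 and 7.04 with DMSO (-1.69, SE 0.09). Its other, slightly dimmer probe sets changed by -2.58 (SE 0.11) and -2.72 (SE 0.22), so that the brightest gave the smallest of the 3 falls.

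All 5 genes of the outer corona and of the RZZ complex, which bring motors and checkpoint proteins to unattached kinetochores, fell. Cenpf, a large coiled-coil protein of the corona, had 5.96 and 6.33 with vorinostat and 8.79 and 8.56 with DMSO, a 5.79-fold fall (-2.53, SE 0.15). Its other probe sets fell by 2.52 (SE 0.22) and by only 0.67 (SE 0.14) on the log2 scale. The kinesin Cenpe, which moves chromosomes towards the spindle equator, changed by -2.19 (SE 0.13), and by -2.76 (SE 0.14) at a second probe set. Of the RZZ subunits, Kntc1 (-1.51, SE 0.11) and Zwilch (-1.42, SE 0.08) fell by more than 2-fold. Zw10, the subunit that also acts in membrane traffic between endoplasmic reticulum and Golgi, had 8.53 and 8.62 with vorinostat and 8.94 and 8.92 with DMSO, a 1.28-fold fall (-0.35, SE 0.08, adjusted p = 0.0234). The intervals of Zw10 and of its partners are separate. The Zw10 call was lost without any 1 array (adjusted p from 0.0788 to 0.127), under the replicate block (0.0588) and in the mean of its 4 probe sets (0.559), and its change was 0.014 under the reference-gene shift. Another Zw10 probe set, at 3.68 and 3.74 against 3.82 and 3.94, did not pass (-0.16, SE 0.09).

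In the spindle checkpoint, 5 of 6 genes fell. Ttk, the kinase that starts the signal, had 5.90 and 6.06 with vorinostat and 8.19 and 8.20 with DMSO, a 4.64-fold fall (-2.21, SE 0.09, adjusted p = 0.000185). The kinase Bub1 (-2.13, SE 0.08), the BUBR1 gene Bub1b (-1.999, SE 0.09) and the effector Mad2l1 (-1.95, SE 0.11) changed by amounts whose intervals overlap with that of Ttk and with each other. Bub3, the adaptor that binds BUB1 and BUBR1, changed by -1.16 (SE 0.08), and its interval is separate from those 4. Mad1l1, which anchors MAD2 at kinetochores, had 5.61 and 5.28 with vorinostat and 5.87 and 5.90 with DMSO, and just missed the threshold (-0.44, SE 0.13, adjusted p = 0.0501). It passed with an intensity trend in the variance (adjusted p = 0.0291), among probe sets above the median level (0.0238), with arrays centred on their medians (0.0236), in the mean of probe sets above background (0.0235) and without Vorinostat 1. It did not pass under the reference-gene shift (-0.07, adjusted p = 0.618), with the replicate block (0.0924), or without Vorinostat 2, DMSO 1 or DMSO 2. Nor did Mad1l1 pass in the mean of all its probe sets (0.258), or without _s_at, _x_at and _a_at probe sets (0.21, adjusted p = 0.265). Both of these use its other probe set, which was near background in both groups (2.56 and 2.76 against 2.55 and 2.36).

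The 3 measured genes of the chromosomal passenger complex all fell by at least 4-fold at their brightest probe sets. Birc5, which encodes survivin, had 8.07 and 8.01 with vorinostat and 10.75 and 10.71 with DMSO, a 6.44-fold fall (-2.69, SE 0.08, adjusted p = 0.00016). Cdca8, which encodes borealin, had 7.91 and 7.92 with vorinostat and 9.93 and 10.01 with DMSO (-2.05, SE 0.08). The scaffold Incenp changed by -2.13 (SE 0.08), and its interval overlaps with that of Cdca8 while Birc5 stands apart from both at these probe sets. The other Cdca8 probe sets changed by -2.29 (SE 0.11) and -2.28 (SE 0.08), and the interval of the first overlaps with that of Birc5. Other Incenp probe sets changed by -1.96 (SE 0.08) and -1.94 (SE 0.10), which is under 4-fold. A dimmer Incenp probe set fell at least 1.53-fold to near background, and another, near background in both groups, did not pass. The kinase of the complex, Aurkb, was not a member and had a log2 change of -3.05 (SE 0.09, adjusted p = 0.00016).

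Cenpj carries a CENP symbol but encodes a centriole protein, and it did not pass. It had 6.59 and 6.35 with vorinostat and 6.41 and 6.39 with DMSO, and the arrays overlap (0.07, SE 0.11, adjusted p = 0.699, 95% interval -0.20 to 0.34). Under the reference-gene shift its change was 0.44 and passed (adjusted p = 0.016), where the median of all genes was 0.40.

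Sizes of change depended on the probe set as well as on the gene. Of the 98 member probe sets, 74 fell and 1 rose, against 15.7% and 16.5% of all probe sets, and 14 were near background in both groups. The other 84 comprise the 1 that rose, 73 that fell and 10 that did not pass. Among 24 genes with at least 2 probe sets not near background in both groups, 17 had all of them called lower, and the fitted changes differed by over 1 log2 unit in 9. Cenpo was an example, with 5.31 and 5.34 under vorinostat and 6.69 and 6.95 under DMSO at its brightest probe set, a fall of at least 4.02-fold to near background at a second, whose DMSO arrays lay apart at 6.42 and 5.00, and no call at 1 other above background (0.11, SE 0.18) or at 1 near background with vorinostat (-0.07, SE 0.14). With _s_at, _x_at and _a_at probe sets left out, which can match several transcripts, 34 of the 40 members still measured fell. Ska1 (adjusted p = 0.0582) and Spc25 (0.603) then no longer passed, since dim probe sets stood in for them, and Zw10 had a log2 change of 0.054 at a probe set near background in both groups.

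**Figure D4:**
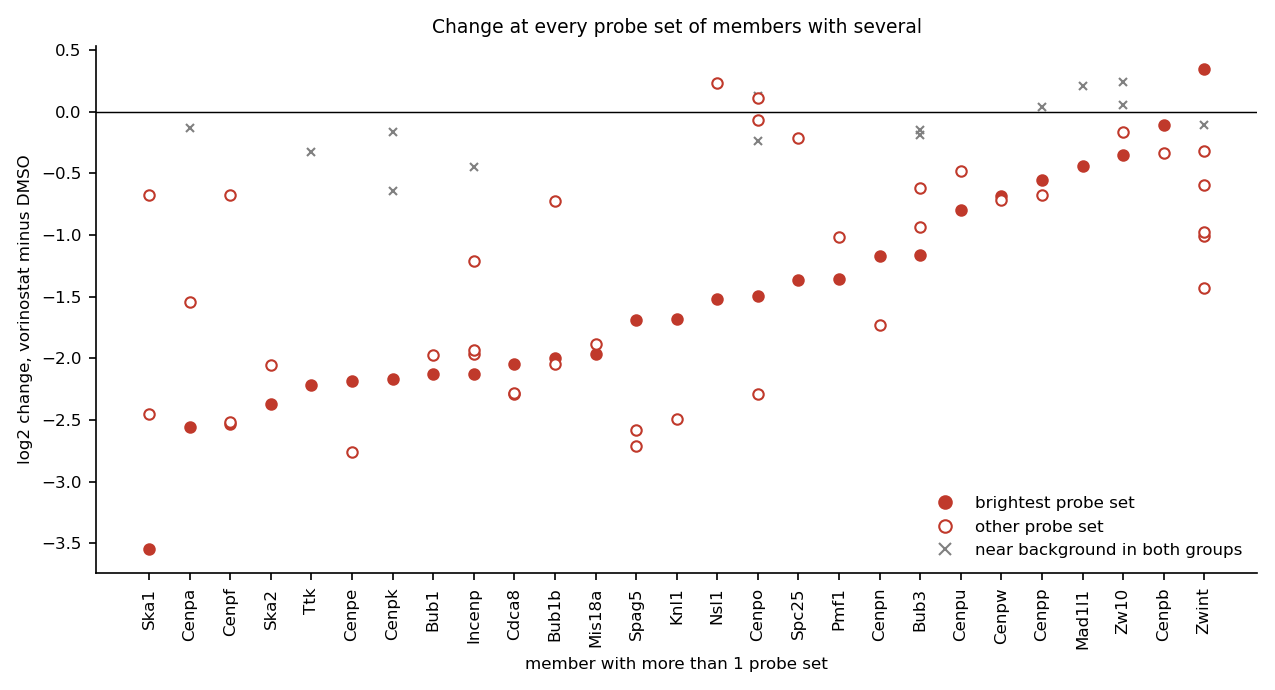
Log2 change (vorinostat minus DMSO, y axis) at every probe set of the 27 members with more than 1 (x axis, ordered by the brightest). Filled circles are the brightest probe set, open circles others and crosses those near background in both groups. The 14 crosses lie between -0.64 and 0.24, and Zwint, Nsl1 and Cenpo have circles on both sides of 0.

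A list of 30 further kinetochore and centromere genes outside the members had 28 measured. Of these, 21 fell, 2 rose and 5 did not pass, with a median of -1.39. The depolymerase Kif2c (-3.37, SE 0.08) and the kinase Plk1 (-3.19, SE 0.15) fell most. The CENP-S gene Cenps, whose product joins CENP-T and CENP-W, fell (-2.36, SE 0.08), while its partner Cenpx (-0.18, SE 0.09) and the CENP-R gene Itgb3bp (0.16, SE 0.08) did not pass. The microtubule regulators Clasp1 (0.09, SE 0.10) and Clasp2 (-0.24, SE 0.10) and the dynein adaptor Ndel1 (0.10, SE 0.08) did not pass either. The phosphatase subunit Ppp2r5a (0.54, SE 0.11) and Mad2l1bp (0.50, SE 0.08), which encodes the MAD2-removing p31comet, rose. Both rises were lost without Vorinostat 1 or DMSO 1, and 1 rise was called without Vorinostat 2 and 1 without DMSO 2. Trip13, the ATPase that works with p31comet to take MAD2 complexes apart, fell (-2.71, SE 0.10). In lists from neighbouring processes, 9 of 10 mitotic kinesins fell, 1 of them near background in both groups, with a median of -1.79, and 19 of 20 DNA replication genes with a median of -1.78. Whether the members differ from these lists was not tested.

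**Figure D5:**
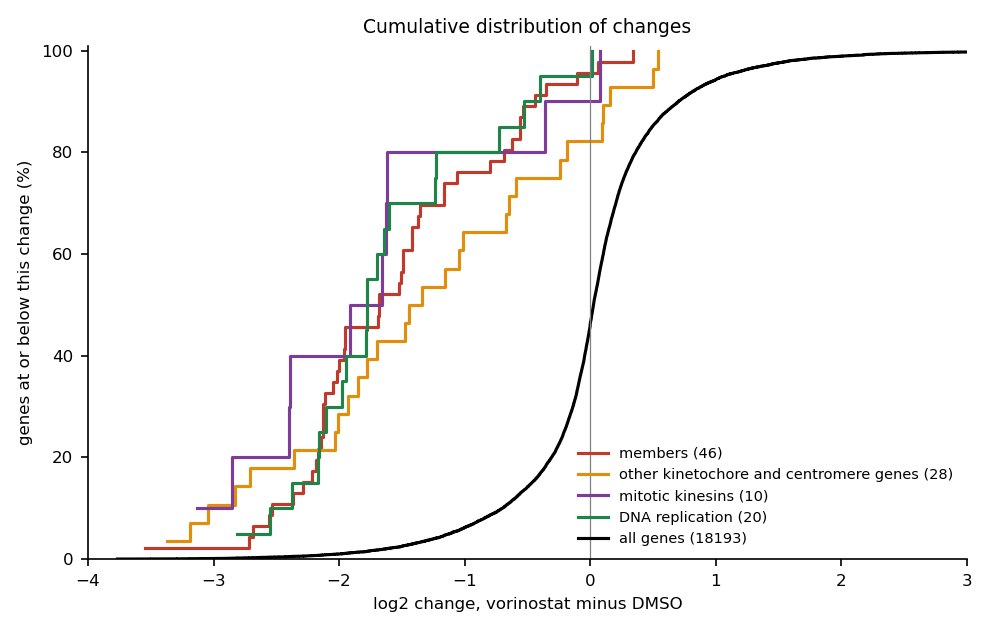
Share of genes (y axis, %) at or below a given log2 change (vorinostat minus DMSO, x axis) for the 46 members, 28 other kinetochore and centromere genes, 10 mitotic kinesins, 20 DNA replication genes and all 18193 genes. The curve of all genes crosses its median at 0.03, and those of the 4 lists reach theirs between -1.79 and -1.39.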

How the data were processed

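Total RNA of 4 samples was hybridised to Affymetrix arrays, and the log2 values, 1 for each probe set on each array, are those the authors deposited. RMA and the Transcriptome Analysis Console are named in the submitters' processing notes. Versions and the genome build are not given in the sources used here, so no coordinates are printed. RMA, as defined, equalises the arrays' distributions, so a change shared by all RNAs cannot be seen. With so few arrays, their number sets the precision.

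Of 45101 probe sets, 64 controls were left out. Names came from the platform annotation: 34945 probe sets had 1 symbol, 932 several and 9160 none. Vorinostat and DMSO were compared with limma 3.58.1 in R 4.3.3 (lmFit and eBayes, two-sided tests). The prior had 3.26 degrees of freedom. P-values were adjusted by Benjamini-Hochberg over 45037 probe sets, with no filter, no block and 95% confidence intervals. Reference genes were Actb, Ywhaz, Hprt, Sdha, Gusb, Polr2a and Tbp. Every member is named, with array values for the largest fall and smallest change of each role and for members that rose, did not pass or had discordant probe sets. Members, lists and alternatives were chosen with earlier results of these data known, and 1 alternative (the mean of probe sets above background) after the values were seen. Sequences were not used here.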

Additional observations from a re-analysis of the deposited data

How the results depend on the processing

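Members fell under all 12 alternatives to the limma comparison, with 34 (of 40 measured, without _s_at, _x_at and _a_at probe sets) to 44 called lower. The median change of the members was -1.74 with arrays centred on their medians, -1.31 with the reference-gene shift, -1.47 for the mean of all probe sets, -1.63 for the mean of probe sets above background, -1.61 without _s_at, _x_at and _a_at probe sets, and -1.73 to -1.57 when single arrays were left out. Without those probe set types, 49 member probe sets fell, since fewer were tested, and 1 other kinetochore and centromere gene rose. Rising members numbered 3 with the reference-gene shift, together with 10 rising member probe sets and 5 other kinetochore and centromere genes. They numbered 0 with arrays centred on their medians, with either mean over probe sets and without any 1 array, as did rising member probe sets in the first and last of these. Leaving out single arrays gave 0 to 1 rising genes of the other list, and probe sets above the median level gave 2 rising member probe sets. Of all genes, 2048 fell and 11340 rose with the reference-gene shift, and 2046 to 2326 fell and 2094 to 2381 rose without single arrays, against 3444 and 3806. Signs turned for Cenpb (0.26) and Zw10 (0.014) with the reference-gene shift, and for Zwint as the mean of all probe sets (-0.59) or of those above background (-0.67). Without the 3 probe set types they turned for Zw10 (0.054) and Mad1l1 (0.21), each at a probe set near background in both groups. Mad1l1 had no call in either fit, nor had Cenpj, whose sign turned (-0.053) without Vorinostat 1. The replicate number as a block left 41 members falling, 0 rising and 70 and 0 member probe sets. The labels state no pairing of the arrays. Deviations of the replicate 1 arrays from their group means had a correlation of -0.06 over 45037 probe sets. With 2 arrays per group this cannot decide whether the numbers pair the arrays. The causes of these differences were not tested where not stated. Values near background are limited by signal over background.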
